A study of Mus musculus with 8 samples.

Results

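The 6 genes Pim1, Pim3, Socs1, Socs3, Socs5 and Cish, of the Pim kinase and SOCS families were followed through the response of follicular B cells to antigen. They were taken by gene symbol, and 8 probe sets carried exactly 1 of these symbols, of 12422 probe sets that were no controls. Pim1 and Socs3 had 2 probe sets each and the others 1. The cells were follicular (FO) B cells of mice whose antigen receptor recognised hen egg lysozyme (HEL), the protein used as antigen. Their receptor was either IgM or IgMG, a chimera carrying the IgG1 spacer, membrane-spanning part and cytoplasmic tail in place of those of IgM. Cells of each receptor were unstimulated or stimulated with HEL, which gave 4 groups of 2 single-colour arrays. Each array pooled cells of several mice: 2 or 4 for IgM and 5 to 8 for IgMG, so receptor and number of mice cannot be told apart. The cells came from 1 or 2 sorts per IgM array and from 2 or 3 per IgMG array. For strain, age, the way the receptors were introduced and the length of stimulation, the sources used here give no entry. In such bulk samples fewer cells of a type and less RNA per cell cannot be told apart.

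Pim kinases are serine/threonine kinases that are active as soon as they are made, so that the amount of their mRNA and protein largely sets their activity. They favour survival, cap-dependent translation and growth, and are classical targets of STAT transcription factors below cytokine receptors. SOCS proteins and Cish, the founding member, are induced by the same pathway and restrain it: their SH2 domain binds phosphorylated receptors or JAK kinases, and their SOCS box recruits a ubiquitin ligase. In B cells these genes link antigen signals to the cell's sensitivity to cytokines such as IL-4, IL-6 and IL-21.

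Because STAT binding is the textbook route to these genes, their promoter windows were searched for the STAT motif TTCNNNGAA, a palindrome that reads the same on both strands. The windows, of 300 bases with 250 before the start site, came from RefSeq sequences of build GRCm38.p6. Windows were at hand for 5 of the 6 genes, and Socs5 had none. The motif was in the windows of Socs3 and Cish, in 2 of 6 windows, and not in those of Pim1, Pim3 or Socs1. Of 32851 windows of all genes, 8.30% held it. The Egr motif GCGTGGGCG, searched on both strands, was in 0 of the 6 windows and in 0.612% of all windows. The 3 stretches shown are those of Socs3 and Pim3, which had a probe set that rose with HEL, and of Cish, which had none. Capitals mark STAT motifs. The Socs3 stretch is chr11:117969367-117969616 on the minus strand and the Pim3 stretch chr15:88861944-88862193 on the plus strand, both ending just before the start site. The Cish stretch is chr9:107296654-107296683 on the plus strand and spans the start site, with motifs that begin 1 and 12 bases into the transcript.
Socs3: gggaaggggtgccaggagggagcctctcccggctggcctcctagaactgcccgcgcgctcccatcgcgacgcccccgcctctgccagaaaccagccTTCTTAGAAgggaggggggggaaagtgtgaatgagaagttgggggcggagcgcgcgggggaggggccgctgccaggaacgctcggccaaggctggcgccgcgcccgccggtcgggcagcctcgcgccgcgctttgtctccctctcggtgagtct
Pim3: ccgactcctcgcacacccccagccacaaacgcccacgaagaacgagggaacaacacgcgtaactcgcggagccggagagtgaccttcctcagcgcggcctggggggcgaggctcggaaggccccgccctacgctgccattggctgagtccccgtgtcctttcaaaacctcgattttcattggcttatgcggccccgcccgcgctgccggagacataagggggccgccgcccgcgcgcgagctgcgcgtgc
Cish: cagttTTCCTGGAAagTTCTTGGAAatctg
The Socs3 motif began at base -154. A match describes the letters only, and no binding was measured.

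Signals are linear intensities as deposited, and changes are differences of log2(signal + 16), a scale that understates changes of dim probe sets. All 8 probe sets passed the filter that kept the brightest 60% (7452 of 12422) for testing. The 6 others, besides the brighter one of Pim1 and the one of Pim3, had mean signals of 44.6 to 109, not far above the median of an array, 40.7 to 47.8. The filter used the mean over all 8 arrays, and the lowest mean kept was 24.5. Some group means lay below that for the dimmer Pim1 and Socs3 probe sets and for Socs5. Adjusted p-values are those of limma over all tested probe sets, and a change passed at an adjusted p under 0.05. With 2 arrays in each group, p = 0.333 is the smallest value that an exact permutation test allows. The deposited arrays were scaled to a like mean, and over the scalings tried the median of all tested probe sets stayed between -0.07 and 0.08 in the comparisons. The Gapdh 5'/3' signal ratio, a sign of RNA integrity, was highest on the second IgM array with HEL (0.755, against 0.140 to 0.395). B cell identity was checked with 8 follicular and general B cell markers on the array, all tested. Their summed signal lay between 21510 and 27052 on all arrays. Its members moved apart with HEL: group means of Cd79b went from 6646 to 3318 in IgM and from 6392 to 4116 in IgMG cells, and those of Pax5 from 1141 to 556 and from 1133 to 668. Blk went from 2903 to 4698 and from 2719 to 4378, while Cd22 went from 1284 to 643 in IgM and from 1129 to 1239 in IgMG cells. Fcer2a read 1099 on the first and 3434 on the second unstimulated IgM array, and 1970 to 2855 on the others. Summed signals of 9 NK cell markers were 298 to 747 on 7 arrays and 3026 on the second unstimulated IgMG array, and those of 18 myeloid markers were 5922 to 12713 and 21027. The second IgM array with HEL and the second unstimulated IgMG array are named below as the arrays that stand apart. Sums of 5 plasma cell markers went with HEL from 917 and 929 to 5921 and 6544 in IgM and from 872 and 1372 to 3897 and 3435 in IgMG cells, mostly through Irf4 (group means 426, 5765, 454 and 3096). Group means of Jchain went the other way, from 133 to 38.05 in IgM and from 302 to 52.3 in IgMG cells (55.8 and 547.7 before HEL). Those of Xbp1 went from 341 to 399 and from 340 to 478, and Sdc1 and Prdm1 were too dim to be tested. Sums of 5 erythroid markers lay between 12637 and 20111, mostly Hba-a1. The part of these lists in the values of the Pim and SOCS genes was not tested. Of 9 T cell markers 1 was bright enough to be tested. No marker was at 0 on all arrays.

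**Figure D1:**
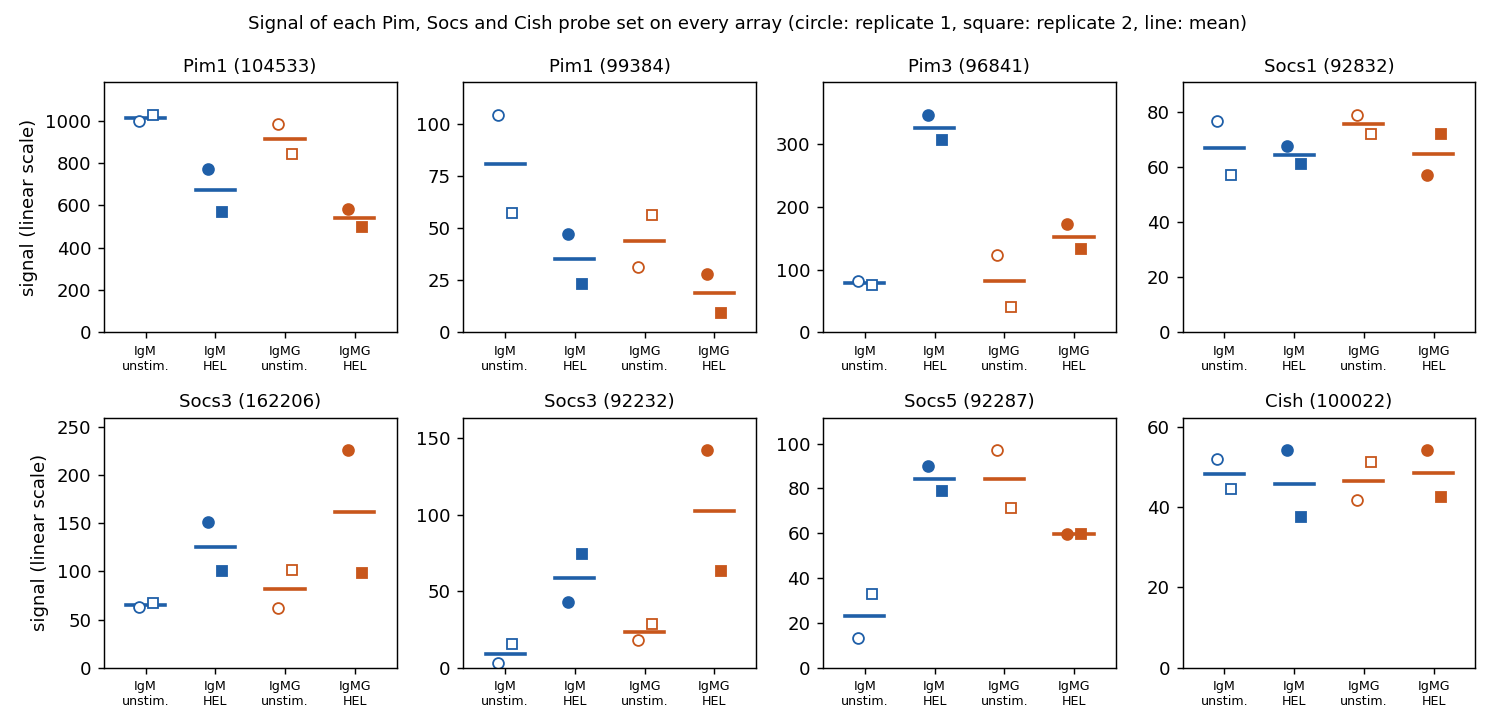
Signals on each of the 8 arrays for the 8 probe sets (vertical axes: linear signal from 0, horizontal axes: the 4 groups; circles and squares are replicates 1 and 2 and lines are group means of 2 arrays). Pim1 was lower with HEL for both receptors, Pim3 and Socs3 were higher, and Socs5 stood lowest on both unstimulated IgM arrays.

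With HEL, Pim3 and Socs5 rose in IgM cells, as did the dimmer probe set of Socs3. By the brightest probe set of each gene, 2 of the 6 rose and 0 fell there. The background was 6.70% of tested probe sets that rose and 7.31% that fell, 14.0% in all. In IgMG cells 0 of 6 genes passed by limma, against a background of 3.23% that rose and 2.42% that fell, 5.65% in all. There 3 of 8 probe sets had an unadjusted p under 0.05 in limma, as had 1660 of 7452 probe sets. All calls in IgMG cells split into 241 higher and 180 lower as deposited, and into 235 and 100 after median centring. In the mean of both responses Pim3 rose and Pim1 fell, beside 9.26% of probe sets that rose and 11.0% that fell, 20.3% in all. The difference between the 2 responses passed for 0 of 8 probe sets and for 0% of all tested. One member, Socs5, had an unadjusted p under 0.05 there, as had 753 of 7452 probe sets. The median change of the 8 probe sets was 0.37 in IgM and -0.07 in IgMG cells, beside -0.02 and -0.05 over all tested.

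In IgM cells the arrays with HEL lay wholly above those without for 4 of the 8 probe sets and wholly below for 2, as for 27.6% and 30.7% of all tested. In IgMG cells they lay above for 2 and below for 3, as for 23.7% and 29.4%. Pim3 and the dimmer Socs3 probe set were higher with HEL for both receptors, like 12.8% of tested probe sets, and both Pim1 probe sets were lower for both, like 16.1%. Before antigen the receptors were apart for both Pim1 probe sets (lower in IgMG, as for 15.1%) and for Socs5 and the dimmer Socs3 probe set (higher, as for 16.4%). With HEL they were apart for Pim3 and Socs5, lower in IgMG as for 24.4%, and for 0 of the 8 in the other direction, which 23.9% showed.

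**Figure D2:**
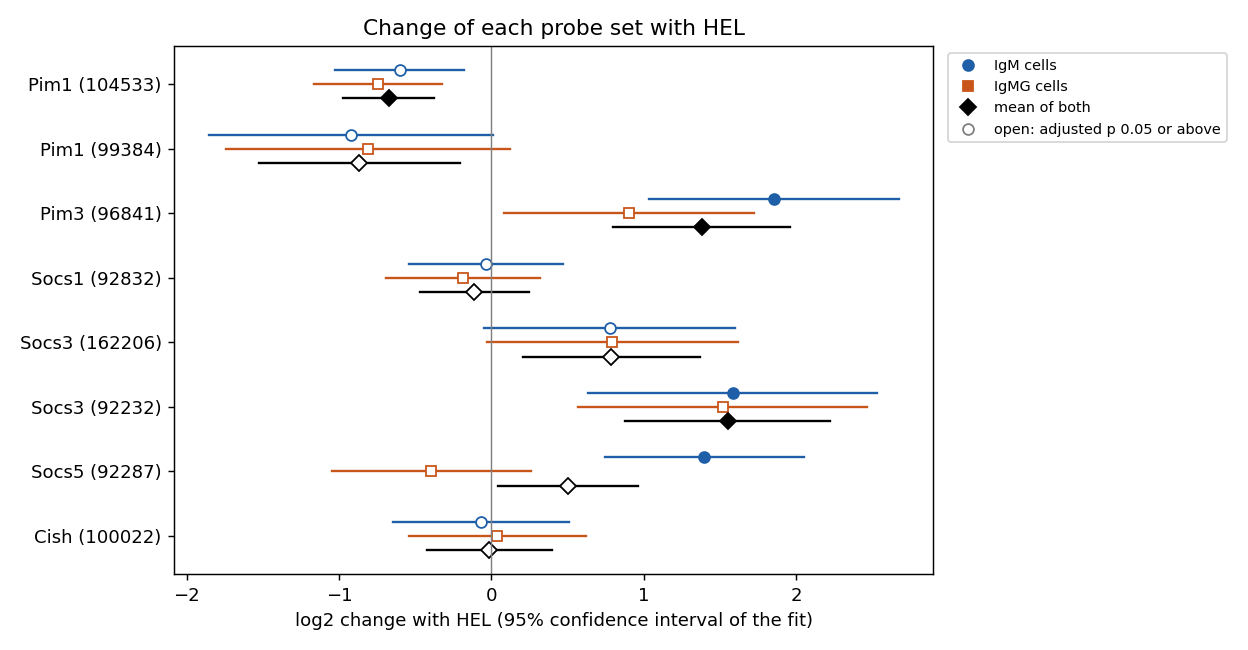
Log2 change with HEL of each probe set with its 95% confidence interval (horizontal axis), in IgM cells (circles), IgMG cells (squares) and their mean (diamonds); filled symbols passed an adjusted p of 0.05. The intervals of both Pim1 probe sets lie mostly below 0, and Socs5 is the one whose IgM and IgMG values lie on opposite sides of 0 with intervals that do not overlap.

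Pim1, the founding Pim kinase, fell with HEL over both receptors. Its brighter probe set read 1000.5 and 1027 on the unstimulated IgM arrays and 773 and 568 with HEL. In IgMG cells it read 984 and 845 without and 581 and 498 with HEL. All 4 arrays with HEL lay below all 4 arrays without. The log2 change was -0.60 ± 0.19 (SE) in IgM cells (adjusted p = 0.0625 in limma) and -0.74 ± 0.19 in IgMG cells (adjusted p = 0.0533 in limma), neither past the threshold. The mean of both was -0.67 ± 0.13, an adjusted p = 0.00786 in limma, which is 0.627 times the unstimulated level with a 95% interval of 0.510 to 0.771. This call held in each of 23 other ways of processing, with values of -0.78 to -0.56. The response in IgM cells passed without the first IgM array with HEL (-0.82, adjusted p = 0.035 in limma). The response in IgMG cells, at the same value, passed without either 1 of the IgM arrays with HEL (adjusted p = 0.0417 and 0.042 in limma).

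The dimmer Pim1 probe set read 104 and 57.3, then 47.1 and 23 with HEL in IgM cells. In IgMG cells it read 31.4 and 56.2, then 28.1 and 9.3. Within each receptor the arrays with HEL lay below those without. Its mean change was -0.86 ± 0.29 (SE), in the direction of the brighter probe set, and missed the threshold (adjusted p = 0.0674 in limma). For the brighter probe set the groups ordered as unstimulated IgM, unstimulated IgMG, IgM with HEL and IgMG with HEL, from high to low. The unstimulated groups differed by -0.15 ± 0.19 (IgMG minus IgM) and the stimulated ones by -0.29 ± 0.19, with adjusted p = 0.995 and adjusted p = 0.509 in limma. The responses differed by -0.14 ± 0.26, with a 95% interval of -0.74 to 0.45. The 3 genes with profiles closest to Pim1 over the 8 arrays were Rfk (root mean square difference 0.101 on the log2 scale), Zfp821 (0.110) and Mlec (0.121), while Pim1 itself spanned 1.02.

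Pim3, a related kinase of the same family, moved the other way. It read 82.3 and 74.9 on the unstimulated IgM arrays and 346 and 306 with HEL. In IgMG cells it read 123 and 40.9 without and 172 and 132 with HEL. Both arrays with HEL were above both without for each receptor, and the stimulated IgM arrays were above all others. In IgM cells Pim3 rose by 1.85 ± 0.36 (SE), with an adjusted p = 0.0111 in limma and a fold of 3.61 (95% interval 2.05 to 6.38). With any 1 of the 4 IgM arrays left out the value was 1.77 to 1.94 and the call was lost, at an adjusted p = 0.0536 to 0.0699 in limma. In IgMG cells the change was 0.91 ± 0.36 (adjusted p = 0.18 in limma), and 1.55 (adjusted p = 0.0142 in limma) without the first unstimulated IgMG array, the higher of that pair. Without the second it was 0.26, as it was without both arrays that stand apart (adjusted p = 0.555 in limma). The mean of both responses was 1.38 ± 0.26 (adjusted p = 0.0064 in limma), and it passed under each of 23 alternatives, at 1.03 to 1.70.

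From high to low the Pim3 groups ordered as IgM with HEL (326 ± 28.5, SD, n = 2), IgMG with HEL (152 ± 28.1), unstimulated IgMG (82.1 ± 58.3) and unstimulated IgM (78.6 ± 5.23). The unstimulated groups overlapped, with a difference of -0.09 ± 0.36 (SE). The stimulated groups did not overlap, in the direction lower in IgMG that 24.4% of tested probe sets showed. Their difference was -1.03 ± 0.36, with an adjusted p = 0.274 in limma. The responses differed by -0.95 ± 0.51 (95% interval -2.11 to 0.21, adjusted p = 0.527 in limma). With the first unstimulated IgMG array left out that difference was -0.30, with the second left out -1.59, and -1.68 without both arrays that stand apart. The closest profiles were those of Mafk (0.281), a small Maf transcription factor, of the ribosome biogenesis gene Nhp2 (0.351) and of Rbm4b (0.353), while Pim3 spanned 2.67. Mafk rose in both, by 1.55 ± 0.21 in IgM cells (adjusted p = 0.00246 in limma) and 1.10 ± 0.21 in IgMG cells (adjusted p = 0.0235 in limma).

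**Figure D3:**
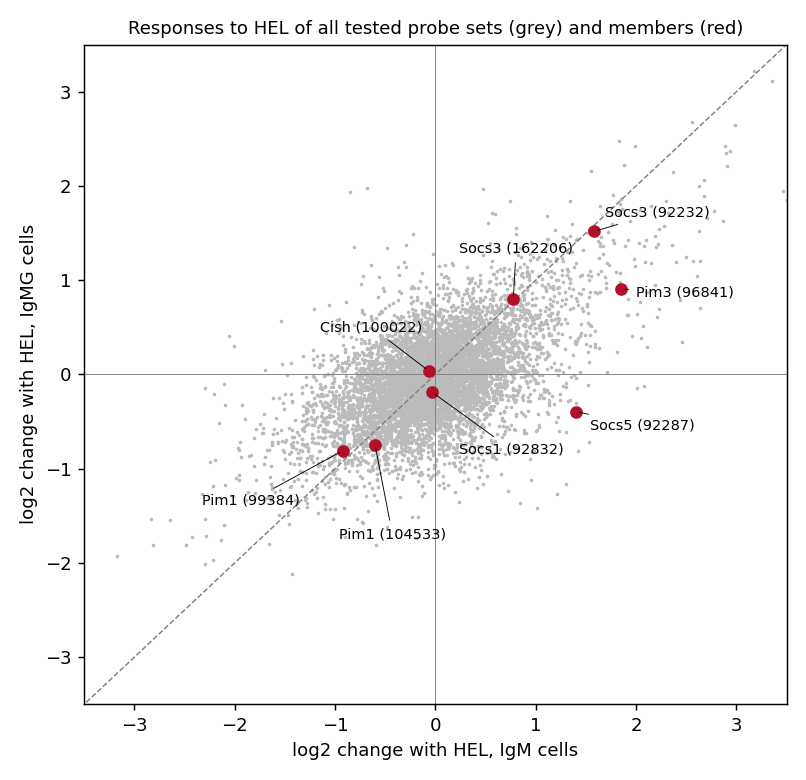
Log2 change with HEL in IgM cells (horizontal) against IgMG cells (vertical) for all 7452 tested probe sets (grey) and the 8 of the Pim and SOCS genes (red); the dashed line marks equal change, and 18 probe sets lie beyond the axes at 3.5. Both Socs3 probe sets lie near the line of equal change, Pim3 below it, and Socs5 farthest from it among the red points.

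Socs3, which binds the IL-6 receptor chain gp130 and inhibits the attached JAK kinases, had higher signals with HEL. Its dimmer probe set read 2.8 and 15.3 on the unstimulated IgM arrays and 42.7 and 74.2 with HEL. In IgMG cells it read 18.2 and 28.5 without and 142 and 63.1 with HEL. All 4 arrays with HEL were above all 4 without. It rose by 1.58 ± 0.42 (SE) in IgM cells (adjusted p = 0.0376 in limma), and by 1.52 ± 0.42 in IgMG cells it missed the threshold (adjusted p = 0.0722 in limma). The mean of both, 1.55 ± 0.30, passed (adjusted p = 0.00721 in limma), and did so under each of 21 alternatives, at 0.82 to 2.44. The call in IgM cells was lost with any of the 4 IgM arrays left out, at values of 1.22 to 1.95 and adjusted p-values in limma of 0.0525 to 0.214. It was also lost with an offset of 64 (0.74), when dim probe sets were kept, with the replicate block, without both arrays that stand apart (1.27) and with the Gapdh ratio as a covariate (1.26).

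The brighter Socs3 probe set carries the platform's suffix for probes that can match several related sequences. It read 63.4 and 67.4, then 151 and 100.2 with HEL in IgM cells. In IgMG cells it read 62.4 and 101, then 226 and 98.6, where the groups overlap. Its changes of 0.78 ± 0.36 (SE) in IgM and 0.80 ± 0.36 in IgMG cells had an adjusted p = 0.196 and an adjusted p = 0.239 in limma. In IgM cells the value lay between 0.51 and 1.04 with 1 array left out. For IgMG cells it was 0.26 when the first array with HEL was left out, 1.33 when the second was, and 0.505 when the first unstimulated array was. The mean of both was 0.79 ± 0.26, with an adjusted p = 0.0609 in limma. With both probe sets averaged, Socs3 rose by 1.18 in IgM cells (adjusted p = 0.0495 in limma) and 1.17 in the mean of both responses (adjusted p = 0.00966 in limma).

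For the dimmer Socs3 probe set the receptor difference was 0.69 ± 0.42 (SE) without and 0.62 ± 0.42 with HEL, IgMG minus IgM, and neither passed (adjusted p = 0.995 and 0.538 in limma). The responses differed by -0.07 ± 0.59, an interval of -1.41 to 1.28 that holds differences of over 2-fold in either direction, and the sign turned when arrays were centred on their medians (0.034) or quantile normalized (0.025). Both Socs3 probe sets were highest on the first IgMG array with HEL. The 18 myeloid markers summed to 12713 on that array and 11140 on the other such array. Their sum was highest, 21027, on the second unstimulated IgMG array, where the Socs3 probe sets read 101 and 28.5. On the other 5 arrays it was 5922 to 8720. Single markers peaked on different arrays. On the first IgMG array with HEL, Cd14 (1005), Csf1r (540), C1qa (550), C1qb (598) and C1qc (801) had their top signals. Ctss and Adgre1 peaked there too. S100a8 (5339), S100a9 (4097), Lyz2, Tyrobp, Apoe, Cd68, Itgam, Fcer1g and Mpo instead peaked on the array with the largest sum. Fcgr3 and Elane peaked elsewhere. The part of myeloid cells in the Socs3 signal was not tested. Closest in profile to the brighter probe set were Slc11a1 (0.208), a transporter of macrophages, Icam1 (0.215), an adhesion molecule, and Brix1 (0.222), while Socs3 spanned 1.62. Icam1 rose in IgM cells by 0.99 ± 0.25 (adjusted p = 0.0308 in limma).

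Socs5, a SOCS protein linked to the receptors of EGF and IL-4, was low in 1 group alone. It read 13.4 and 33.1 on the unstimulated IgM arrays and 89.9 and 78.7 with HEL. In IgMG cells it read 97 and 71.2 without and 59.6 and 59.5 with HEL. Both arrays with HEL lay above both without in IgM cells, and below them in IgMG cells, a pattern of 2.52% of tested probe sets, while 2.54% showed the reverse. In IgM cells it rose by 1.40 ± 0.29 (SE), with an adjusted p = 0.0142 in limma and a fold of 2.64 (95% interval 1.68 to 4.14). The unstimulated IgM mean, 23.25, lay below 24.5, the lowest mean kept by the filter, which Socs5 passed through its other groups. The call was lost without the first unstimulated IgM array (1.03, adjusted p = 0.0942 in limma), without the first IgM array with HEL (1.32, adjusted p = 0.059) and without the second (1.48, adjusted p = 0.0661). In IgMG cells the change was -0.39 ± 0.29 (adjusted p = 0.475 in limma).

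The Socs5 responses differed by -1.79 ± 0.41 (SE), IgMG minus IgM, with a 95% interval of -2.71 to -0.87. It ranked 22 of 7452 by p in that comparison, with an unadjusted p = 0.00176 and an adjusted p = 0.412 in limma. Before antigen, Socs5 was 1.39 ± 0.29 above IgM in IgMG cells, the rank 4 of 7452, with an unadjusted p = 9.89e-04 and an adjusted p = 0.979 in limma. There 0% of the 7452 passed in limma, while an unadjusted p under 0.05 was found for 344. With HEL the difference was -0.41 ± 0.29 (adjusted p = 0.555 in limma). The levels ordered as IgM with HEL (84.3 ± 7.92, SD, n = 2), unstimulated IgMG (84.1 ± 18.2), IgMG with HEL (59.6 ± 0.07) and unstimulated IgM (23.3 ± 13.9), and the first pair overlapped.

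Profiles closest to that of Socs5 were those of the fatty acid carrier Fabp5 (0.224), the Notch regulator Dtx1 (0.224) and Apoa2 (0.249), while Socs5 spanned 1.94. Dtx1 is also a marker of marginal zone B cells. The summed signal of 6 markers of these cells was 929 and 1024 in unstimulated IgM and 1380 and 1532 in unstimulated IgMG cells, and 796 to 902 and 1073 to 1075 with HEL. Since Dtx1 was named for its likeness to Socs5, the sum was also taken without it, an alternative chosen after its values were seen. The 5 others summed to 793 and 770 in unstimulated IgM and 902 and 1099 in unstimulated IgMG cells, and to 458 and 436, and 710 and 676, with HEL. None of the 6 was at 0 on all arrays, and their part in the Socs5 values was not tested. Without both the second IgM array with HEL and the second unstimulated IgMG array, the Socs5 difference before antigen was 1.57.

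**Figure D4:**
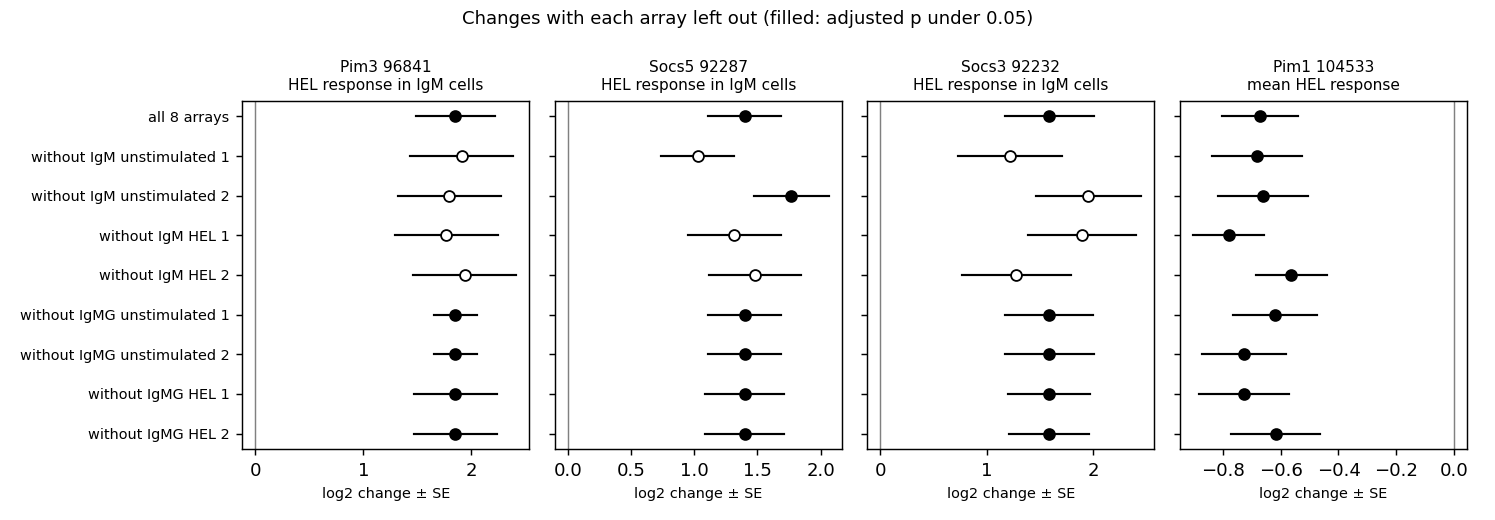
Log2 change ± SE (horizontal axes) with all 8 arrays and with each array left out, for Pim3, Socs5 and the dimmer Socs3 probe set in IgM cells and for the brighter Pim1 probe set in the mean of both responses; filled points have an adjusted p under 0.05. Leaving out an IgM array opens most points of the first 3 panels, at values that keep their sign, and no point of the Pim1 panel.

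Socs1 and Cish passed in none of the comparisons made in limma. Socs1, a strong inhibitor of JAK kinases below interferon receptors, read 57 to 78.8 over the 8 arrays, and its groups overlapped with and without HEL for both receptors. Its change was -0.19 ± 0.22 (SE) in IgMG cells and -0.11 ± 0.16 in the mean of both responses, with a 95% interval of -0.47 to 0.25. Cish, which binds receptors that signal through STAT5, read 37.5 to 54.1, again with overlapping groups. Its change was 0.04 ± 0.26 in IgMG cells and -0.01 ± 0.18 in the mean, with an interval of -0.42 to 0.40. As folds on the scale with the offset, these intervals run from 0.722 to 1.19 for Socs1 and from 0.745 to 1.32 for Cish. Changes within these bounds remain compatible with the fit. The profiles nearest to Socs1 were those of Trp53-ps (0.0579), Degs1 (0.0747) and Fbln1 (0.0864), and those nearest to Cish were Gabarapl2 (0.0484), Ubr3 (0.0708) and Adh7 (0.0753).

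Other members of both families on the array were Pim2 and Socs2, and neither passed. Pim2, a kinase of the same family, read 119 to 180 with its brighter probe set and changed by 0.07 ± 0.18 (SE) in IgM and 0.22 ± 0.18 in IgMG cells (adjusted p = 0.841 and 0.547 in limma). Socs2, a regulator of growth hormone signalling, read 80.3 and 41.3 without and 19.7 and 16.1 with HEL in IgM cells, without overlap. Its change there was -1.13 ± 0.37 (adjusted p = 0.0754 in limma), and in IgMG cells it was -0.31 ± 0.37 (adjusted p = 0.688). Socs4, Socs6 and Socs7 had no probe set with 1 symbol.

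Among JAK kinases and STATs, the kinases and transcription factors that SOCS proteins restrain, 8 genes were tested of 9 on the array. In IgM cells 3 rose and 1 fell, and in IgMG cells 1 rose and 0 fell. Over all tested probe sets 14.0% passed in IgM and 5.65% in IgMG cells. Stat6, the factor of the IL-4 receptor, rose by 0.87 ± 0.14 (SE) in IgM and 0.83 ± 0.14 in IgMG cells (adjusted p = 0.00547 and 0.0155 in limma). It read 754 and 708, then 1304 and 1403 in IgM cells, and 633 and 717, then 1197 and 1228 in IgMG cells, so arrays with and without HEL were apart for both. Stat4 rose by 2.09 ± 0.34 in IgM cells (adjusted p = 0.00513 in limma). It did not pass in IgMG cells, where its group means were 316 without and 742 with HEL. Stat3, the factor of gp130, rose by 0.72 ± 0.20 in IgM cells, and its second probe set by 1.11 ± 0.20 (adjusted p = 0.0435 and 0.00828 in limma). In IgMG cells both missed the threshold, at 0.51 ± 0.20 and 0.24 ± 0.20. Stat5a fell by 0.65 on the log2 scale in IgM cells (SE 0.18, adjusted p = 0.0435 in limma), a call lost in 16 of 24 alternatives, and its other probe set did not pass. Jak1, Jak2 and Jak3 changed by -0.17 ± 0.16, 0.09 ± 0.24 and -0.28 ± 0.37 in IgM cells, and none passed. The list's median change was 0.14 in IgM and 0.22 in IgMG cells, beside -0.02 and -0.05 over all tested.

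**Figure D5:**
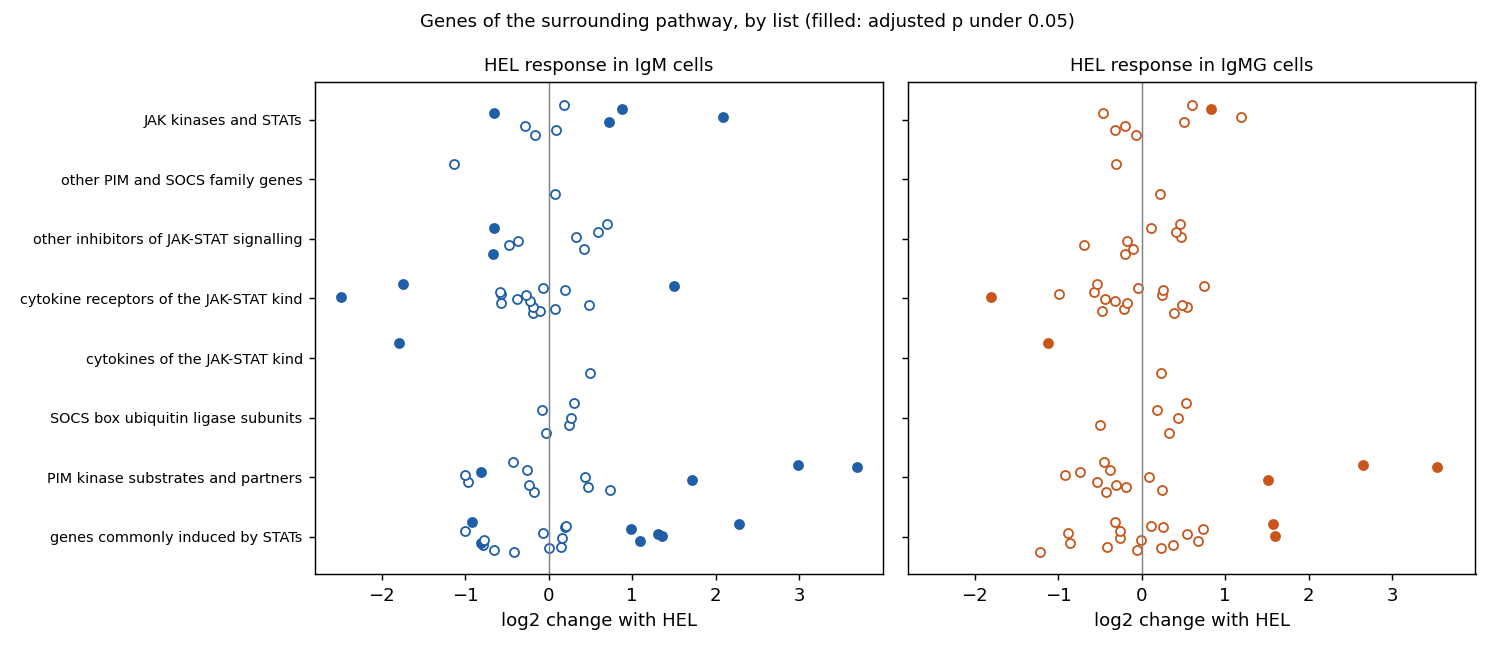
Log2 change with HEL (horizontal axes) of the tested genes of 8 lists around the Pim and SOCS genes, in IgM cells (left) and IgMG cells (right), each gene by its brightest probe set; filled points passed an adjusted p of 0.05. Myc and Nfatc1 lie farthest to the right and Il10ra farthest to the left in both panels.

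Of 16 tested cytokine receptor genes, 1 was higher and 2 lower with HEL in IgM cells, and 1 lower in IgMG cells. For this list and those that follow, the share over all tested probe sets was 14.0% in IgM and 5.65% in IgMG cells. Il6st, which encodes gp130, rose by 1.51 ± 0.24 (SE) in IgM cells (adjusted p = 0.00486 in limma), but its second probe set did not pass (0.46). In IgMG cells they changed by 0.74 and 0.41, and neither passed (adjusted p = 0.11 and 0.539 in limma). Il10ra changed by -2.48 ± 0.33 in IgM and -1.81 ± 0.33 in IgMG cells (adjusted p = 0.00222 and 0.0191 in limma), both lower, and in IgM cells Lifr fell by 1.75 (adjusted p = 0.0229 in limma). Of 8 other inhibitors of the pathway, 0 rose and 2 fell in IgM cells, and 0 passed in IgMG cells by limma. In IgMG cells 3 had an unadjusted p under 0.05 in limma, as had 1660 of 7452 probe sets. Pias1 fell by 0.67 (adjusted p = 0.0316 in limma) and Ptprc, the CD45 phosphatase, changed by -0.65 (adjusted p = 0.0271 in limma), with a second Ptprc probe set of opposite sign (0.66, adjusted p = 0.582). Of 5 subunits of the SOCS box ubiquitin ligase, 0 passed with HEL in either receptor by limma. In IgM and IgMG cells 0 and 1 had an unadjusted p under 0.05 in limma, beside 2138 and 1660 of 7452 probe sets. Of 2 tested cytokines, Il12a changed by -1.79 in IgM and -1.11 in IgMG cells (adjusted p = 7.46e-04 and 0.0143 in limma).

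Of 13 tested substrates and partners of Pim kinases, 3 rose and 1 fell in IgM cells, and 3 rose and 0 fell in IgMG cells. Beside this list and the next, 14.0% of all tested probe sets passed in IgM and 5.65% in IgMG cells. Myc, whose protein Pim kinases stabilise, rose by 3.69 ± 0.22 (SE) and 3.54 ± 0.22, and Nfatc1 by 2.99 ± 0.18 and 2.65 ± 0.18. Cxcr4, a chemokine receptor phosphorylated by Pim1, rose by 1.72 ± 0.19 in IgM and 1.51 ± 0.19 in IgMG cells (adjusted p = 9.50e-04 and 0.00407 in limma). Foxo3 fell by 0.80 in IgM cells (adjusted p = 0.0331 in limma). It did not pass in IgMG cells, where its group means were 440 without and 259 with HEL. Of 18 tested genes that STATs commonly induce, 5 rose and 2 fell in IgM cells, and 2 rose and 0 fell in IgMG cells. Junb rose by 2.28 ± 0.22 and 1.57 ± 0.22, and Fos by 1.36 ± 0.33 and 1.59 ± 0.33, in IgM and IgMG cells. Gadd45b rose by 1.31 ± 0.28 and Cebpb by 1.10 ± 0.25 in IgM cells, where Mcl1, a survival gene, fell by 0.92 (adjusted p = 0.00397 in limma). The median change of this list was 0.08 and 0.05, beside -0.02 and -0.05 over all tested. Of 19 named calls of the 8 lists in IgM cells, 9 were lost with at least 1 array left out (Stat3, Stat5a, Ptprc, Pias1, Lifr, Foxo3, Fos, Gadd45b and Cebpb), and of 8 in IgMG cells 5 were (Stat6, Il10ra, Il12a, Junb and Fos).

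Between the receptors, 0 genes of the 8 lists passed in limma before antigen, with HEL or in the difference of responses. By brightest probe sets, the smallest p-values of the lists in the difference of responses were those of Ptprc (0.76 ± 0.22, SE) and Mcl1 (0.61 ± 0.20), with adjusted p = 0.412 and 0.414 in limma. The second Ptprc probe set had the opposite sign there (-1.12, adjusted p = 0.71 in limma). Before antigen Ccnd2, a cyclin, differed by -1.53 ± 0.40 (adjusted p = 0.979 in limma) and Stat4 by 1.03 ± 0.34 (adjusted p = 0.995). With HEL, Il12a differed by 0.92 ± 0.19, Gadd45b by -1.08 ± 0.28 and Cxcr4 by -0.66 ± 0.19, with adjusted p = 0.186, 0.231 and 0.245 in limma. In that comparison 1 of 7452 probe sets passed (0.0134%), and 0 of the 8 of the Pim and SOCS genes did. Of these 8, 1 (Pim3) had an unadjusted p under 0.05 in limma, beside 1041 of all 7452. Comparisons of the receptors share their arrays with the responses to HEL, so these values do not support each other.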

How the data were processed

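The authors deposited 1 linear intensity per probe set and array, made with MAS5 per the submitters' processing notes; version and scaling target: not given in the sources used here. The deposited intensities had a mean of 150.1 on each array after trimming 2% at each end. Groups and replicate numbers came from the titles, which number the experiments 1 and 2, and pooling came from the descriptions. Of 12488 probe sets 66 controls were left out, and gene symbols were those of the platform annotation of 2016 (10833 probe sets with 1 symbol, 396 with several, 1193 with none). Values were log2(signal + 16), and the brightest 60% by mean signal were tested in limma 3.58.1 (R 4.3.3): all 8 arrays with a coefficient for each of 4 groups, eBayes with a mean-variance trend, two-sided tests, Benjamini-Hochberg adjustment over 7452 probe sets, with 4 residual and 4.87 prior degrees of freedom. Errors are standard errors of the fit or SDs of 2 arrays. The p-values measure the spread between these pooled samples. A gene is counted by its brightest probe set.

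Members, lists and tests were chosen with earlier results of these data known. Named were all members, the 3 nearest profiles of each, and per list the called genes of smallest p (up to 5, or 1 if none was called) besides a fixed set of Pim, Socs, Jak and Stat genes. Not every name under the last rule is printed. Alternatives covered the offset, scaling, filter, trend, arrays in the fit, replicate block, each array left out, averaged probe sets, the Gapdh 5'/3' ratio, both arrays that stand apart and the threshold. The main fit was first checked with simulated arrays, for both responses to HEL and their difference. The other comparisons and the alternatives were not checked in this way. Figures used matplotlib 3.10.9 in Python 3.11.15.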

Additional observations from a re-analysis of the deposited data

Results flagged for a closer look

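Socs5 was the 1 probe set of the 8 whose arrays with HEL lay wholly above the unstimulated arrays in IgM cells and wholly below them in IgMG cells. Of all tested probe sets 2.52% showed this pattern and 2.54% the reverse. The difference of the Socs5 responses, IgMG minus IgM, was -1.79 ± 0.41 (SE) on the log2 scale. The test of that difference did not pass over all probe sets (adjusted p = 0.412 in limma, 0.199 to 0.922 over 22 alternatives), and the value ranged from -2.42 to -1.03. Its signals with HEL were 89.9 and 78.7 in IgM and 59.6 and 59.5 in IgMG cells, while those without were 13.4 and 33.1 in IgM and 97 and 71.2 in IgMG cells.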

How the results depend on the processing

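The count of member genes that passed stayed at 0 in the difference of responses and in the 3 comparisons of the receptors under every alternative run, and at 2 or 3 in the mean of both responses. In IgM cells the 2 genes, Pim3 and Socs5, became 0 at an adjusted p of 0.01 and 0 to 2 with 1 array left out. They became 3 at an adjusted p of 0.10 (with Pim1) and with probe sets averaged (with Socs3). They were Pim1 and Pim3 with the brightest 40% tested, Socs5 alone without the second unstimulated IgM array and Pim1 alone without the first IgM array with HEL. In IgMG cells the 0 genes became 1 with quantile normalization, with the brightest 40% tested, without both arrays that stand apart and at an adjusted p of 0.10, and 0 to 1 with 1 array left out. That gene was Pim1, except that it was Pim3 without the first unstimulated IgMG array. Among the brightest 40%, Socs1, Socs5 and Cish were too dim to be tested, so the counts there are of the other member genes. The causes of the other changes in these counts were not tested.

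Values near 0 turned in sign. The difference of responses of the dimmer Socs3 probe set was 0.15 with an offset of 64, 0.034 with centred arrays, 0.025 with quantile normalization, 0.64 with the Gapdh ratio, 0.43 without both arrays that stand apart, and -0.57 to 0.43 with 1 array left out. The unstimulated difference of Pim3 was 0.56 without both of those arrays and -0.73 to 0.56 with 1 left out. The mean response of Cish was 0.14 without both and -0.11 to 0.083 with 1 left out, its response in IgMG cells then -0.090 to 0.17, and the difference of responses of Pim1 -0.36 to 0.075. Ptprc in IgM cells was 0.0063 with its probe sets averaged.

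Over all probe sets the calls ranged from 339 to 1558 in IgM cells (1044 as reported), from 58 to 800 in IgMG cells (421), from 691 to 2059 in the mean of both (1513), from 0 to 13 in the difference (0), and from 0 to 35 without and 0 to 7 with HEL between receptors (0 and 1). With the replicate number as a block, the members' counts were 2 in IgM and 0 in IgMG cells as before, and the dimmer Socs3 probe set lost its call in IgM cells (adjusted p = 0.0559 in limma). Deviations of same-numbered arrays correlated at -0.16 to 0.02. With a single deviation per group these values cannot show whether the experiments paired the arrays. With numbers crossed between receptors, an alternative chosen after seeing the data like a filter on mean log2 values, the counts were also 2 and 0. The 2 arrays per group and signals near the array median limit the precision.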
